A study of Mus musculus with 18 samples.

Results

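The genes described here are 36 cell cycle and DNA replication genes, given as a list of symbols, out of 41388 genes in the count tables. All 36 were found, each under its own Ensembl ID, and all 36 passed the filter on low counts. They fall into 10 genes of origin licensing and the replication fork (Mcm2 to Mcm7, Cdc6, Cdt1, Gins2 and Pcna), 4 of nucleotide supply (Tyms, Rrm1, Rrm2 and Tk1), 6 of the cyclins and Cdk1 (Ccne1, Ccne2, Ccna2, Ccnb1, Ccnb2 and Cdk1) and the transcription factor gene Foxm1. The rest are Mki67 and Top2a of chromosome structure, 6 genes of mitotic kinases and the spindle checkpoint (Bub1, Bub1b, Aurka, Aurkb, Plk1 and Birc5), Cdc20 and Ube2c of the anaphase-promoting complex, and 5 of the spindle and kinetochore (Kif11, Tpx2, Cenpa, Cenpf and Stmn1).

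RNA was sequenced from NK cells of pooled C57BL/6 spleens, to ask which genes the T-box factor Eomes regulates as NK cells mature. The KO mice carried 1 Ncr1-iCreERT2 allele, the Rosa26YFPLSL reporter and Eomesfl/fl alleles, and received tamoxifen, so that Cre acts in cells that use the Ncr1 gene. The comparison mice are labelled WT with no further genotype. Cells were sorted by 2 surface markers. Stage II had CD27 without CD11b, stage III carried both, and stage IV had CD11b without CD27, with 3 libraries for each genotype and stage, 18 in all. According to the labels, mice were 8 to 12 weeks old, treatment lasted 3 days and there were 3 separate experiments. Whether WT mice also received tamoxifen, how many spleens were pooled and which experiment a replicate number stands for are not stated, so the p-values measure the spread between these libraries, which may be technical.

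As background, a cell that prepares to divide loads the MCM helicase onto replication origins with Cdc6 and Cdt1, copies its DNA with the help of Pcna and of enzymes that make deoxynucleotides, and then turns on the mitotic genes. E2F factors act on many genes of the first group, and the MuvB complexes with B-Myb and FoxM1 act on many of the second. In the spleen, the CD27+ CD11b- NK cells are known as the stage that divides most, and the CD27- CD11b+ cells as largely resting.

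The promoter sequences of 4 members show the 2 kinds of sequence that go with these groups. RefSeq windows of the GRCm38.p6 build, from 250 bases before to 50 after an annotated start, were found for 28 of the 36 members. Capitals mark 3 motifs, searched on both strands. They are the CCAAT box (CCAAT), the letters of the cell cycle genes homology region (TTTGAA or TTCGAA), and E2F sites (TTTCGCGC, TTTGGCGC, TTTCCCGC or TTTGCCGC), and matches may overlap. Ccnb2 (chr9:70421505-70421804, minus strand) and Ube2c (chr2:164769679-164769978, plus strand) stand for the mitotic members, Cdc6 (chr11:98907901-98908200, plus strand) and Mcm6 (chr1:128359656-128359955, minus strand) for the replication members, all written 5′ to 3′ on the gene's own strand.
Ccnb2: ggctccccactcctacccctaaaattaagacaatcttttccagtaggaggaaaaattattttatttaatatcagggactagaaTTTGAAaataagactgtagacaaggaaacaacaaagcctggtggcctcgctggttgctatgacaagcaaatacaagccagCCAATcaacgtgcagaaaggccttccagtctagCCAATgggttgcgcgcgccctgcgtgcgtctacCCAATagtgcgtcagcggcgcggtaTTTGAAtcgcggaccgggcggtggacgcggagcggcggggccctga
Ube2c: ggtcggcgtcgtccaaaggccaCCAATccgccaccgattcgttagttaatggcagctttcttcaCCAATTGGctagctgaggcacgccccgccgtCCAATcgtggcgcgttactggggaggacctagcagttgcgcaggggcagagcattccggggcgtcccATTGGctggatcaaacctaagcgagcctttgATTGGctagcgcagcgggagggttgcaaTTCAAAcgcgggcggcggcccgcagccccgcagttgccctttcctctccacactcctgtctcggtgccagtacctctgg
Cdc6: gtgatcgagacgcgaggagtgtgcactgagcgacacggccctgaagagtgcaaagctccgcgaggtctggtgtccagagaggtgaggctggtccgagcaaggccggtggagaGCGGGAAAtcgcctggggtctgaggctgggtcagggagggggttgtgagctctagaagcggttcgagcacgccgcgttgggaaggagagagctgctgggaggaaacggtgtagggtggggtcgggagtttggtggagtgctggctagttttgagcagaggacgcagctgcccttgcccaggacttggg
Mcm6: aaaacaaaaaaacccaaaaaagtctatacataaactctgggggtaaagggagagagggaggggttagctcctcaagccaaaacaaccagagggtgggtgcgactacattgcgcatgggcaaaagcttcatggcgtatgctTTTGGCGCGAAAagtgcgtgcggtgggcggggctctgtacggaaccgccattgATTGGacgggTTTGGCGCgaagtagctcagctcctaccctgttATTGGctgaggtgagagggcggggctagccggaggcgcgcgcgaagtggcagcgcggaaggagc

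The Ccnb2 window held 3 CCAAT boxes and 2 homology region matches, and the Ube2c window 6 CCAAT boxes and 1 homology region match. The Cdc6 window held 1 E2F match, and the Mcm6 window 3 E2F matches and 2 CCAAT boxes. The homology region letters were present in 13 of 15 mitotic members with a window and in 2 of 13 replication members, against 21.7% of 27025 genes with a window. E2F letters were present in 6 of 13 replication members and 1 of 15 mitotic members, against 2.6% of all genes. CCAAT boxes were present in 22 of the 28 members, against 41.1% of all genes. A match is a description of the letters, not of a factor's binding, and no difference in motifs between members that moved and others was tested. Of the 12 members with a window that fell from stage II to IV in WT cells, 7 held the homology region letters, 9 a CCAAT box and 2 an E2F match, and of the 16 others 8, 13 and 5 did.

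Total counts ran from 18684350 to 28365837 per library. Eomes itself ran from 191 to 287 CPM (reads of the gene scaled to the library's total count) in the 9 WT libraries and from 55.2 to 160 CPM in the 9 KO libraries, and KO was lower in each stage. In KO stage III, replicates 1 and 3 had a count for 14824 and 16536 genes, fewer than any other library. The most were seen in replicate 1 of WT stage II (29859 genes) and replicate 3 of KO stage IV (27912), and the remaining libraries had 17899 to 21556. The RNA of the sort marker CD11b, Itgam, went against the label in the same KO stage III libraries: it was at 92.7 and 83.6 CPM in replicates 1 and 3, against 298 in replicate 2, 390 to 469 in WT stage III and 17.6 to 61.1 in stage II. Cd27 was at 310 to 399 CPM in all stage III libraries. For KO against WT, the fold changes of members called with the libraries labelled KO stage III are therefore given with and without replicates 1 and 3. Without them 1 KO stage III library is left, too few to test a call. Ncr1, the locus that carries Cre in KO mice, divided the WT libraries by number: replicate 1 had 2043 to 2102 CPM in the 3 stages and replicates 2 and 3 had 3574 to 4189, while the KO libraries had 1631 to 2216. Xist, taken as a check of sex, was at 35.5 to 45.2 CPM in the WT replicate 1 libraries, at most 0.636 in the other WT libraries and 5.66 to 36.1 in KO. The WT replicate 1 libraries thus stood apart from the other WT libraries on both genes, and results that rest on this are given with and without them. On Xist, WT replicates 2 and 3 also stood apart from every KO library. The part of sex in the KO against WT values was not tested. Of markers of other cells, Foxp3 and Elane were each under 1 CPM in every library, but the lists they belong to were not low. Summed T cell markers ran from 301 to 1110 CPM over the libraries, and summed myeloid markers from 243.2 to 669.2. The plasma cell gene Jchain was highest in KO stage III replicate 2, at 10.41 CPM. The myeloid genes Lyz2 and Csf1r were highest in KO stage III replicate 2, at 62.0 and 9.80 CPM, and their part in its member values was not tested. The T cell gene Cd3e is described with the stage II comparison. In bulk samples, fewer cells of a type and less RNA per cell cannot be told apart.

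Members differed widely in level. Per kilobase of transcript, the highest were replication genes: mean RPKM over the 18 libraries was 53.5 for Mcm4, 38.8 for Pcna, 34.4 for Mcm6, 21.9 for Rrm1 and 20.1 for Mcm5. The lowest were mitotic genes, with mean RPKM of 0.145 for Cenpf, the kinetochore protein CENP-F, 0.209 for Bub1, 0.241 for Ccnb1, 0.278 for Foxm1 and 0.351 for Ccna2. The mitotic values therefore rest on few reads, and 10 members had fewer than 10 counts in KO stage III replicate 1. The other libraries had 0 to 5 such members.

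**Figure D1:**
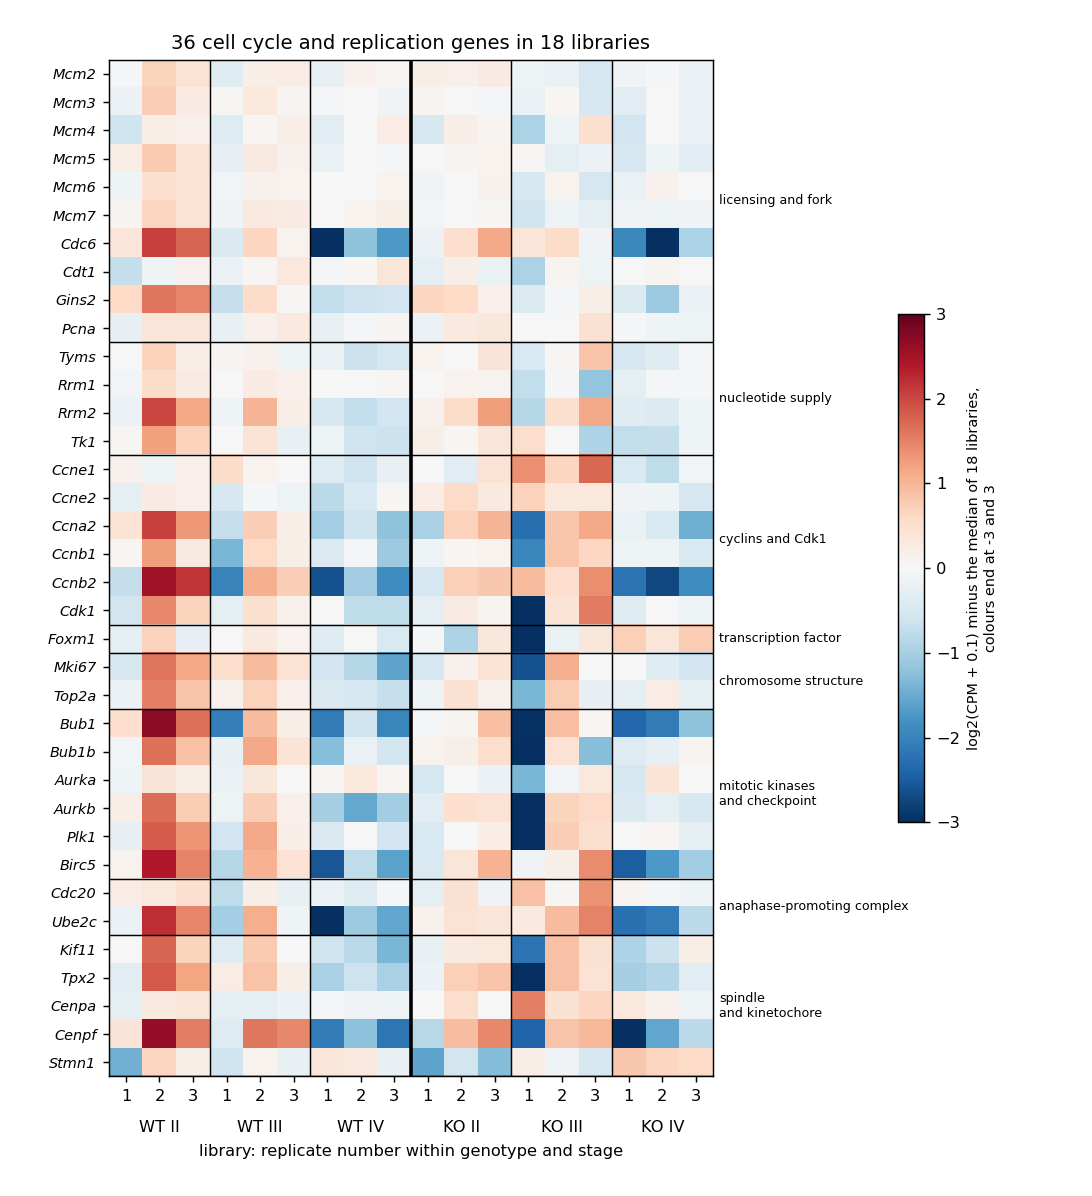
Rows are the 36 members by role and columns the 18 libraries by genotype, stage and replicate number. Colour is log2(CPM + 0.1) minus that member's median over the 18 libraries, ending at -3 and 3. WT stage II replicates 2 and 3 are the warmest columns, the stage IV columns are cool for Cdc6, Ccnb2, Bub1, Birc5, Ube2c and Cenpf, and KO stage III replicate 1 is cool for most mitotic genes and warm for Ccne1 and Cenpa.

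The first comparison asks how the members change as WT NK cells mature. From stage II to stage IV, 15 of the 36 members fell and none rose, while 9.82% of the 14156 genes tested fell and 5.26% rose (edgeR, adjusted p under 0.05). The median log2 fold change of the members was -1.19, against -0.02 over all genes tested. The 15 that fell were 3 of 10 licensing and fork genes (Mcm5, Cdc6 and Gins2), 2 of 4 of nucleotide supply (Rrm2 and Tk1), 2 of 6 of the cyclins and Cdk1 (Ccna2 and Ccnb2), Mki67, Top2a, 3 of 6 of the kinase and checkpoint group (Bub1, Aurkb and Birc5), Ube2c, and Kif11 and Cenpf. All 3 stage IV libraries lay below all 3 stage II libraries for 21 members, against 22.3% of all genes, and all above for 0 members, against 20.4%.

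Summed markers of other lymphoid cells were also lower in stage IV. From WT stage II to IV, summed ILC1 markers went from 648 to 1119 CPM to 23.5 to 29.7 (8 of 8 called lower), summed T cell markers from 906 to 1110 to 320 to 426 (8 of 9 tested called lower) and summed B cell markers from 64.4 to 75.7 to 4.85 to 6.68 (2 of 7 tested called lower). Cd3e went from 8.38 to 46.4 CPM to 0.698 to 1.56. Their part in the fall of the members was not tested.

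Among the licensing and fork genes, Cdc6 and Gins2 fell strongly, while the MCM helicase subunits moved less and Cdt1 did not fall. Mcm5, a subunit of the MCM helicase, was at 76.4, 115 and 90.3 CPM in WT stage II replicates 1 to 3, at 56.8, 81.0 and 73.4 in stage III and at 58.1, 66.7 and 65.8 in stage IV. Its stage II and IV libraries did not overlap, and it fell by 0.57 on the log2 scale (SE 0.16, adjusted p = 0.0241). Cdc6, which loads the helicase onto origins, was at 4.28, 14.2 and 11.3 CPM in stage II and at 0.329, 1.38 and 0.947 in stage IV, with 8, 33 and 19 counts in the latter. It fell by 3.48 (SE 0.62, adjusted p = 0.000868), the steepest change of the 16 replication members, and the stages were well apart. Gins2, a subunit of the GINS complex that completes the active helicase, was at 6.29, 12.7 and 11.5 CPM in stage II and at 2.42, 2.63 and 2.74 in stage IV. It fell by 1.97 (SE 0.34, adjusted p = 0.000748), though its gene overlaps Gse1 and Gm20388 on the other strand and no label or header states whether the counts used strand.

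The rest of the licensing group did not pass the test. Mcm4 was at 134, 232 and 225 CPM in stage II and 159, 203 and 236 in stage IV, with a log2 fold change of 0.01 (SE 0.30), and the stages overlapped fully. Pcna, the sliding clamp of the DNA polymerases, was at 73.8, 112 and 113 CPM in stage II, 75.6, 98.4 and 108 in stage III and 75.2, 86.6 and 92.7 in stage IV, with a log2 fold change of -0.23 (SE 0.19, adjusted p = 0.477). In every WT stage its replicate 1 was the lowest, and the stages overlapped. Cdt1, the partner of Cdc6 in loading, had the highest value of the 36 at 0.33 (SE 0.24, adjusted p = 0.42). Mcm2, Mcm3, Mcm6 and Mcm7, further helicase subunits, had log2 fold changes of -0.39, -0.37, -0.24 and -0.31. Over the 18 libraries Mcm2 ran from 35.0 to 79.0 CPM, Mcm3 from 46.6 to 110, Mcm6 from 111 to 219 and Cdt1 from 17.0 to 42.3, so these genes stayed clearly detected in every library.

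In the nucleotide group, Rrm2, the cell cycle regulated subunit of ribonucleotide reductase, was at 16.2, 73.6 and 40.7 CPM in WT stage II, 16.4, 36.9 and 21 in stage III and 13, 11 and 12.2 in stage IV. Stage IV was uniformly low and lay below stage II, where replicate 1 was far below replicates 2 and 3. Rrm2 fell by 1.85 (SE 0.50, adjusted p = 0.0173), and Tk1, thymidine kinase, fell by 1.20 (SE 0.35, adjusted p = 0.0266). Rrm1, the constant subunit of the same reductase, had a log2 fold change of -0.26 (SE 0.21, adjusted p = 0.492), and Tyms, thymidylate synthase, -0.77 (SE 0.26, adjusted p = 0.0597).

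Of the cyclins, Ccnb2 had the largest change. This mitotic cyclin was at 2.10, 20.8 and 16 CPM in stage II, 0.803, 7.55 and 5.98 in stage III and 0.493, 1.67 and 0.897 in stage IV. Stage IV lay below stage II in every library, and Ccnb2 fell by 3.66 (SE 0.80, adjusted p = 0.00463). Ccna2, the cyclin of S and G2 phase, fell by 2.53 (SE 0.80, adjusted p = 0.042). Ccnb1, the other B-type cyclin, was at 1, 2.44 and 1.17 CPM in stage II, 0.312, 1.51 and 1.09 in stage III and 0.698, 0.918 and 0.399 in stage IV. Its stage II and IV libraries did not overlap, yet its log2 fold change of -1.18 (SE 0.67) did not pass the test (adjusted p = 0.28). Cdk1, the kinase that both B cyclins activate, had a log2 fold change of -1.19 (SE 0.69, adjusted p = 0.285). The G1/S cyclin genes Ccne1 and Ccne2 had values of -0.46 and -0.43, and Foxm1 of -0.42.

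Mki67, which encodes the proliferation antigen Ki-67, was at 5.83, 25.2 and 18.5 CPM in WT stage II, 11.9, 15.9 and 11 in stage III and 5.46, 4.50 and 2.64 in stage IV. Stage II replicates 2 and 3 were several times as high as stage IV, and replicate 1 was barely above it. Mki67 fell by 1.97 (SE 0.63, adjusted p = 0.0429), a call that was lost in 15 of the 18 fits without 1 library. Top2a, the topoisomerase that untangles replicated chromosomes, was at 25.8, 83.6 and 52.7 CPM in stage II, 32.0, 46.9 and 32.4 in stage III and 21.7, 20.2 and 18 in stage IV. Its order was the same, with stage IV below every stage II library, and it fell by 1.43 (SE 0.42, adjusted p = 0.0296).

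The genes of chromosome segregation held several of the steepest falls. Birc5, the survivin subunit of the chromosomal passenger complex, was at 3.65, 18.5 and 9.69 CPM in stage II, 1.83, 7.12 and 4.67 in stage III and 0.493, 1.96 and 1.05 in stage IV. All stage IV libraries were below stage II, and Birc5 fell by 3.18 (SE 0.70, adjusted p = 0.00466). Aurkb, the kinase of the same complex, fell by 2.25 (SE 0.69, adjusted p = 0.0361), and Ube2c, the E2 enzyme of the anaphase-promoting complex, by 3.58 (SE 0.87, adjusted p = 0.0092). Cenpf fell by 4.0 (SE 1.05, adjusted p = 0.015) and the checkpoint kinase gene Bub1 by 3.75 (SE 1.11, adjusted p = 0.03). These last folds rest on small counts, since stage IV held 4, 9 and 3 counts of Cenpf, 2, 10 and 2 of Bub1 and 0, 14 and 8 of Ube2c. Kif11, the kinesin that separates the spindle poles, fell by 1.93 (SE 0.61, adjusted p = 0.0423). Not called were Tpx2, a spindle assembly factor, at -2.05 (SE 0.69, adjusted p = 0.054), the checkpoint gene Bub1b at -1.62, the kinase gene Plk1 at -1.56, Cdc20, an activator of the anaphase-promoting complex, at -0.56, the centromeric histone gene Cenpa at -0.26 and the kinase gene Aurka at -0.01. Stmn1, which destabilises microtubules, was at 0.15 (SE 0.39).

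**Figure D2:**
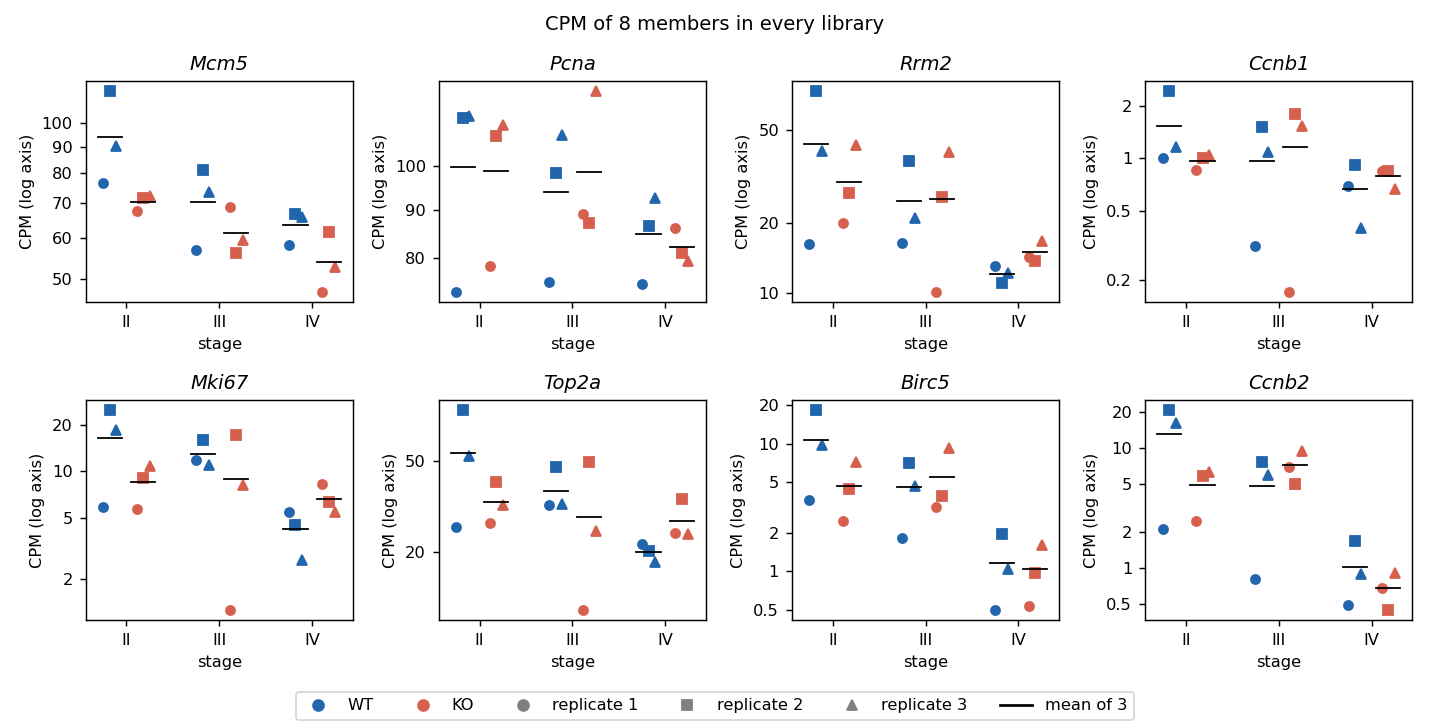
Each panel plots 1 member's CPM on a log axis by stage, with WT in blue and KO in red, a symbol for each replicate number and a bar at the mean of 3 libraries. In WT stage II, replicate 1 (circle) lies below replicates 2 and 3 in all 8 panels. Among the WT stages, Rrm2, Top2a, Birc5 and Ccnb2 have their lowest mean in stage IV. KO stage III replicate 1 holds the lowest Rrm2 and Top2a of the 18 libraries.

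The WT stages can also be read within replicate numbers. Stage II was above stage IV in all 3 numbers for 26 of the 36 members. A descent from II to III to IV was seen for 32 members in number 2, 29 in number 3 and 13 in number 1. WT stage II replicate 1 was the lowest of its group for 35 of the 36 members, and replicate 2 the highest for 31. The summed CPM of the 19 G2 and mitotic members (all but the replication genes and Stmn1) was 92.4, 285 and 192 in WT stage II, 95.3, 159 and 117 in stage III and 76.8, 78.2 and 67.3 in stage IV. In the WT replicate 1 libraries, those with the lower Ncr1, this sum ran from 76.8 to 95.3, and Mki67 was at 5.83 CPM in stage II and 5.46 in stage IV. Top2a and Cenpa make up much of the sum, and without them it was 46.8, 44.1 and 32.2 in the replicate 1 libraries of stages II, III and IV. In that number 16 of the 19 were higher in stage II than in stage IV, among them Birc5 (3.65 and 0.493 CPM) and Ccnb2 (2.10 and 0.493 CPM).

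These differences between libraries bear on the count of 15. Without the 3 WT replicate 1 libraries 9 members were called (Mcm5, Cdc6, Gins2, Rrm2, Tk1, Ccnb2, Top2a, Birc5 and Ube2c). In that fit 711 of 14330 genes tested fell, against 1390 of 14156 in the full fit. With the WT replicate 1 libraries as the only WT libraries, 1 for each stage, Mki67 was at 0.044 on the log2 scale. Leaving out WT stage II replicate 2 left 4 calls, with 835 of 16364 genes falling. Leaving out stage II replicate 3 left 7, with 892 of 16363. Leaving out WT stage IV replicate 1, 2 or 3 left 5, 7 and 5. In the fits with a number over all genes, that number went from 1390 to 711, 835 and 892, and the members from 15 to 9, 4 and 7. Why the counts fell was not tested. Cdc6, Gins2, Ccnb2 and Birc5 stayed called in each of the 18 fits that left out 1 library, and Ube2c in all but the fit without WT stage II replicate 2. With the replicate number as a block 15 members were again called, with Tpx2 (log2 fold change -1.84, adjusted p = 0.0377) in and Mki67 (-1.79, adjusted p = 0.051) out. Of all 14156 genes, 900 rose and 1501 fell with the block.

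Neighbouring WT stages differed less. From stage II to III, 0 members were called (3 at an unadjusted p under 0.05; DESeq2 called 1), against 2.97% of all genes, with a median log2 fold change of -0.48. From stage III to IV, 0 were called (10 at an unadjusted p under 0.05; DESeq2 called 4), against 3.17% of all genes, with a median of -0.58. The numbers paired the WT libraries. With the replicate number as a block, 1 member was called for stage III against II (Gins2 at -1.26, adjusted p = 0.0408), while 188 of 14156 genes rose and 309 fell. For stage IV against III the block called 3 (Cenpf at -3.15, Cdc6 at -2.14 and Birc5 at -1.93), while 144 genes rose and 412 fell.

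The wider pathway was read from 140 further genes in 5 lists. From WT stage II to IV, 30 of 138 tested (21.7%) fell and 6 (4.35%) rose, against 9.82% and 5.26% of all genes. Of 53 other mitotic genes, 18 fell, those with the lowest adjusted p being Spc24 (-3.05), Cenpm (-2.90), Cks1b (-1.89) and Prc1 (-1.22), and 1 rose, the histone variant gene H2afz (0.90). Spc24 and Cenpm encode kinetochore proteins, Cks1b a Cdk-binding subunit and Prc1 a protein of the central spindle. Of 44 other replication genes, 6 fell, those with the lowest adjusted p being the nucleotide genes Dck (-1.17) and Dut (-1.66), the fork factor Mcm10 (-4.50) and Uhrf1 (-1.89), which recruits the maintenance DNA methyltransferase, and the single-strand binding gene Rpa2 rose (0.51). Of 18 E2F, pocket protein and DREAM genes, 4 fell: Tfdp1 (-0.93), which encodes the E2F partner DP1, E2f7 (-4.05), E2f8 (-3.47) and Rbl2 (-0.58). Of 12 genes of G1 cyclins, kinases and phosphatases, Cdk4 (-0.57) and Cdk6 (-1.40) fell and Ccnd3 (0.69) rose. Of 11 tested genes of Cdk inhibitors and antiproliferative factors, 3 rose and none fell: Cdkn2d (0.77), Gadd45g (0.72) and Cdkn1a (1.48). Cdkn1a, which encodes the inhibitor p21, was at 27.5, 17.3 and 26.4 CPM in stage II and 61.2, 64.9 and 73.3 in stage IV, with no overlap.

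The second comparison follows maturation in KO cells, where Eomes RNA was reduced and not absent. From KO stage II to IV, 4 members fell and 1 rose, while 8.76% of all genes fell and 6.12% rose. The 4 that fell, Cdc6, Gins2, Ccnb2 and Birc5, were all among the 15 that fell in WT cells. The median log2 fold change was -0.37, against 0.03 over all genes. All 3 KO stage IV libraries lay below stage II for 17 members, against 20.0% of all genes, and above it for 2, Foxm1 and Stmn1, against 17.0%. Here too the summed ILC1 markers went from 1542 to 1834 CPM to 50.1 to 66.9 (8 of 8 called lower), T cell markers from 907 to 1083 to 301 to 357 (7 of 9) and B cell markers from 61.6 to 73.0 to 7.27 to 13.3 (2 of 7), and their part was not tested.

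Cdc6 was at 2.96, 4.80 and 7.45 CPM in KO stage II and 0.792, 0.283 and 1.69 in KO stage IV, and fell by 2.44 (SE 0.60, adjusted p = 0.00959). Ccnb2 was at 2.46, 5.84 and 6.27 CPM in KO stage II and 0.687, 0.445 and 0.904 in stage IV, and fell by 2.83 (SE 0.81, adjusted p = 0.0245). The stages did not overlap for either gene. Birc5 was at 2.46, 4.44 and 7.14 CPM in KO stage II, 3.19, 3.89 and 9.28 in stage III and 0.528, 0.970 and 1.61 in stage IV, and fell by 2.15 from II to IV (SE 0.69, adjusted p = 0.0441). Gins2 was at 6.49, 6.20 and 4.57 CPM in KO stage II and 3.06, 1.86 and 3.54 in stage IV, and fell by 1.03 (SE 0.34, adjusted p = 0.0498). Stage IV was the lower in every library for both, and the Gins2 call sits at the threshold.

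Stmn1 was the member that rose. It was at 2.89, 5.96 and 3.53 CPM in KO stage II, 10.1, 8.18 and 6.31 in stage III and 15.4, 13.9 and 13.1 in stage IV, a climb through the stages with no overlap, and rose by 1.78 (SE 0.40, adjusted p = 0.00494). In WT cells it was at 3.19, 13.8 and 9.91 CPM in stage II, 5.85, 9.53 and 7.56 in stage III and 11.5, 10.8 and 7.53 in stage IV, where the stages overlapped. The KO call held in each of the 18 fits without 1 library.

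The calls in KO cells rest on few libraries. Leaving out KO stage II replicate 2 or 3 left 2 and 1 of the 5 calls, and leaving out KO stage IV replicate 1, 2 or 3 left 2, 1 and 2. Over all genes, 866 rose and 1240 fell in the main fit. Without KO stage II replicate 2 these numbers were 579 and 902, and without replicate 3 they were 539 and 890. Over the 18 fits without 1 library, Gins2 lost its call in 14, Birc5 in 10, Ccnb2 in 5 and Cdc6 in 2.

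The other 11 members that fell in WT cells were not called in KO cells. Mki67 was at 5.67, 9.01 and 10.9 CPM in KO stage II, 1.25, 17.3 and 8.10 in stage III and 8.24, 6.34 and 5.42 in stage IV, a log2 fold change of -0.35 from II to IV (SE 0.61, adjusted p = 0.79), with overlapping stages. Top2a was at 26.7, 40.3 and 32.2 CPM in KO stage II, 11.2, 49.5 and 24.8 in stage III and 24.3, 34.1 and 23.9 in stage IV, with a change of -0.27 (SE 0.42). Rrm2 was at 19.9, 26.8 and 43.3 CPM in KO stage II, 10.1, 25.7 and 40.3 in stage III and 14.2, 13.7 and 16.7 in stage IV, with a change of -1.01 (SE 0.49, adjusted p = 0.204). Of these 3 genes, Rrm2 alone had no overlap between KO stages II and IV. The lowest values not called were Bub1 at -2.78 (SE 1.13, adjusted p = 0.122) and Cenpf at -2.65 (SE 1, adjusted p = 0.0932), and the highest were Foxm1 at 0.79 and Aurka at 0.22.

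Members that were not called in KO cells include the most abundant ones. Pcna was at 78.5, 108 and 111 CPM in KO stage II, 89.0, 87.1 and 120 in stage III and 86.2, 81.1 and 79.6 in stage IV, and Mcm5 was at 68.7, 56.0 and 59.5 CPM in KO stage III and 47.1, 61.6 and 52.8 in stage IV. The Pcna stages overlapped, and Mcm5 in stage IV lay below all KO stage II libraries (67.5 to 72.4 CPM). Ccnb1 was at 0.856, 1 and 1.05 CPM in KO stage II, 0.171, 1.79 and 1.54 in stage III and 0.845, 0.849 and 0.668 in stage IV, low in all 3 stages and lowest in KO stage III replicate 1.

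The members described by fold change alone spanned wide ranges over the 18 libraries. In the nucleotide and cyclin groups, CPM ran from 17.0 to 48.1 for Tyms, from 38.5 to 130 for Rrm1, from 3.49 to 15.9 for Tk1, from 7.02 to 19.9 for Ccne2, from 0.114 to 4.17 for Ccna2 and from 0.455 to 15.8 for Cdk1. In the mitotic groups it ran from 2.62 to 9.29 for Aurka, from 0.171 to 14.5 for Aurkb, from 0.0569 to 9.62 for Bub1b, from 1.52 to 6.87 for Cdc20, from 0.569 to 10.3 for Kif11 and from 0.228 to 11.5 for Tpx2. Bub1 ran from 0 to 4.98, Plk1 from 0 to 7.04, Ube2c from 0 to 6.75 and Cenpf from 0 to 6.89. WT stage II replicate 2 held the highest value of all of these except Tyms, Ccne2, Cdk1, Aurka and Cdc20.

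A test of the difference between the genotypes passed for no member. The interaction of genotype with stage gave 0 calls for stage IV against II (1 at an unadjusted p under 0.05; DESeq2 called 0), 0 for III against II (4 unadjusted; DESeq2 0) and 0 for IV against III (2 unadjusted; DESeq2 0), against 0.212%, 0.0494% and 0.0283% of all genes. The median interaction for stage IV against II was 0.84 over the members and 0.02 over all genes, and 31 of the 36 values were above 0. No member's maturation change was therefore shown to differ between the genotypes. Without KO stage III replicate 2, 4 members were called in each of the tests that involve stage III. Calls in that fit were common over all 16318 genes tested. For III against II, 1113 were called above 0 and 1330 below, and for IV against III 1246 and 1194.

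**Figure D3:**
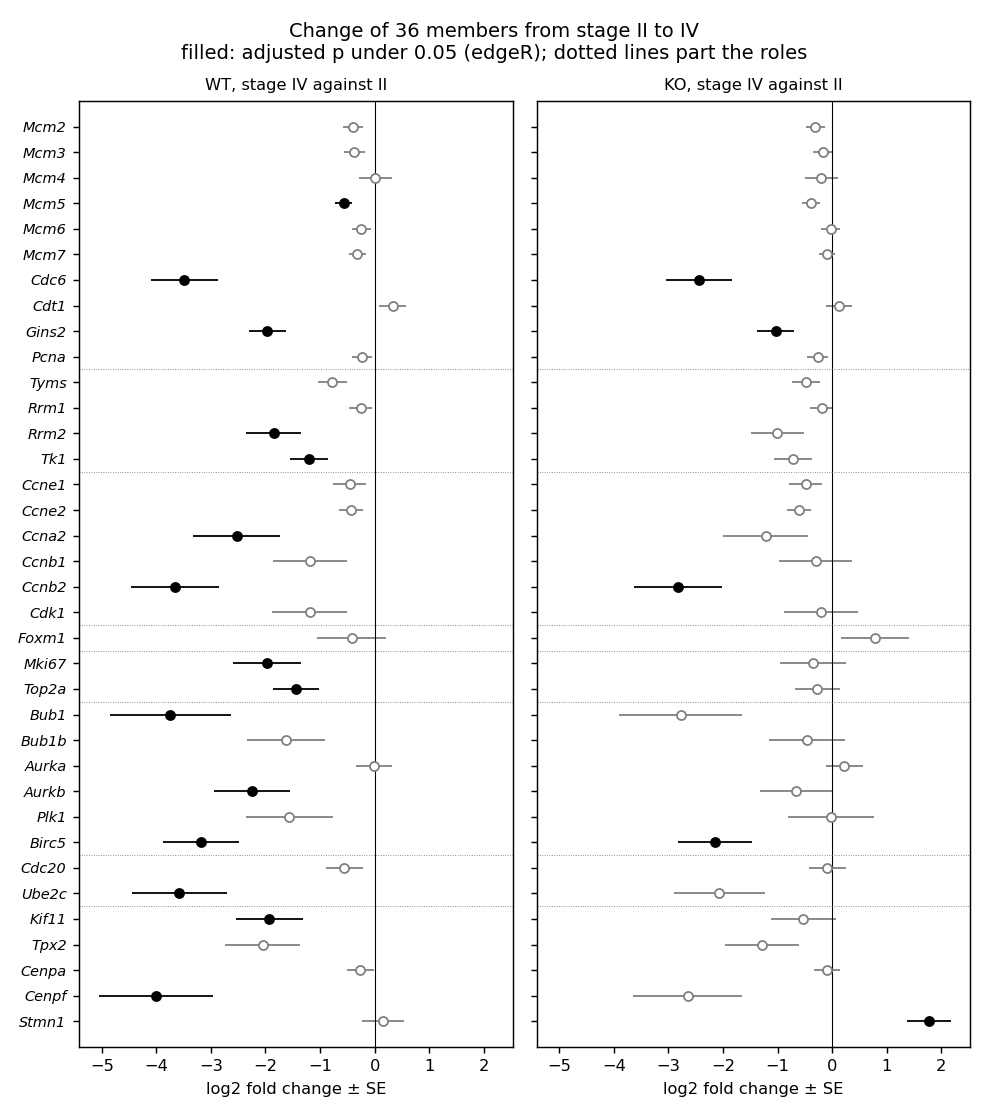
Points are the log2 fold changes of the 36 members from stage II to IV with their SE, WT on the left and KO on the right. Filled points passed an adjusted p under 0.05. Most points lie left of 0 in both panels, 15 are filled in WT and 5 in KO, and Stmn1 is the filled point to the right in KO.

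Between KO stages II and III, 1 member rose, Ccne1 (log2 fold change 1.26, SE 0.30, adjusted p = 0.013), and none fell, against 5.26% and 4.83% of all genes. The numbers paired these libraries too, and with the replicate number as a block Rrm1 (-0.69, adjusted p = 0.0275) was called with Ccne1. Of all 14156 genes, 895 rose and 894 fell with the block. Between KO stages III and IV, 7 members fell and none rose, against 11.4% and 6.33% of all genes. They were Cdc6 (-2.14), Ccne1 (-1.75), Ccne2 (-0.68), Ccnb2 (-3.38), Birc5 (-2.37), Ube2c (-2.77) and Cenpa (-0.84). All of these calls rest on KO stage III, whose replicates 1 and 3 are the libraries with few detected genes. Without these, 1 KO stage III library is left, so a fit cannot decide whether the calls depend on them. Without KO stage III replicate 2, 6 members were called from II to III and 11 from III to IV. Of all 16318 genes tested in that fit, 2322 rose and 2506 fell from II to III. From III to IV, 2739 rose and 2817 fell.

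The third comparison is KO against WT within a stage. In stage II, 0 of the 36 members passed the test (4 at an unadjusted p under 0.05; DESeq2 called 0), against 1.46% of all genes. The median log2 fold change was -0.59, against -0.01 over all genes, and 32 of the 36 values were below 0. The lowest were Bub1 at -1.61 (SE 0.98, adjusted p = 0.757), Ccnb2 at -1.42 (SE 0.71, adjusted p = 0.619) and Plk1 at -1.30 (SE 0.78, adjusted p = 0.753). The highest were Ccne2 at 0.31, Cdt1 at 0.10 and Cenpa at 0.05. All 3 KO libraries lay below all 3 WT libraries for 2 members, Mcm5 and Mcm7, against 8.45% of all genes, and above for 0, against 11%.

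Library by library, the stage II difference came from WT replicates 2 and 3. Xist was at 0.291 and 0 CPM in these, against 45.2 in WT replicate 1 and 14.9 to 36.1 in KO stage II. The part of sex in the difference was not tested. KO was below the WT library of the same number for 32 members in number 2, 31 in number 3 and 16 in number 1. For Mki67 the WT values of 25.2 and 18.5 CPM in replicates 2 and 3 stood above all KO values (5.67 to 10.9), whereas the WT value of 5.83 in replicate 1 lay among them. Mcm5 was at 67.5, 71.5 and 72.4 CPM in KO stage II, all below the lowest WT value of 76.4, with a log2 fold change of -0.42 (SE 0.16, adjusted p = 0.381). Without the 3 WT replicate 1 libraries, 2 members were called lower in KO, Ccnb2 (-1.93, adjusted p = 0.0298) and Stmn1 (-1.53, adjusted p = 0.0228). Of all 14330 genes tested in that fit, 71 were called higher and 132 lower. With WT replicate 1 as the only WT library, Ccnb2 was at 1.34 and Plk1 at 0.33, on the other side of 0.

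Cd3e, a T cell gene, moved with the members in WT stage II: it was at 8.38, 46.4 and 32.9 CPM in WT replicates 1 to 3 and at 7.42, 8.65 and 13 in KO. The summed level of the T cell marker list ran from 906 to 1110 CPM in WT stage II and from 907 to 1083 in KO stage II, which overlap. Summed ILC1 markers were at 648 to 1119 CPM in WT and 1542 to 1834 in KO stage II. Summed immediate early and stress genes were at 2575, 6457 and 8232 CPM in WT stage II and 3478, 7616 and 5337 in KO, lowest in replicate 1 of both. Of the lists, 5 of 8 ILC1 markers were called higher and 1 of 9 tested T cell markers lower in KO, and 0 of 16 immediate early and stress genes were called (edgeR; 0 at an unadjusted p under 0.05). The part of these in the member values was not tested.

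**Figure D4:**
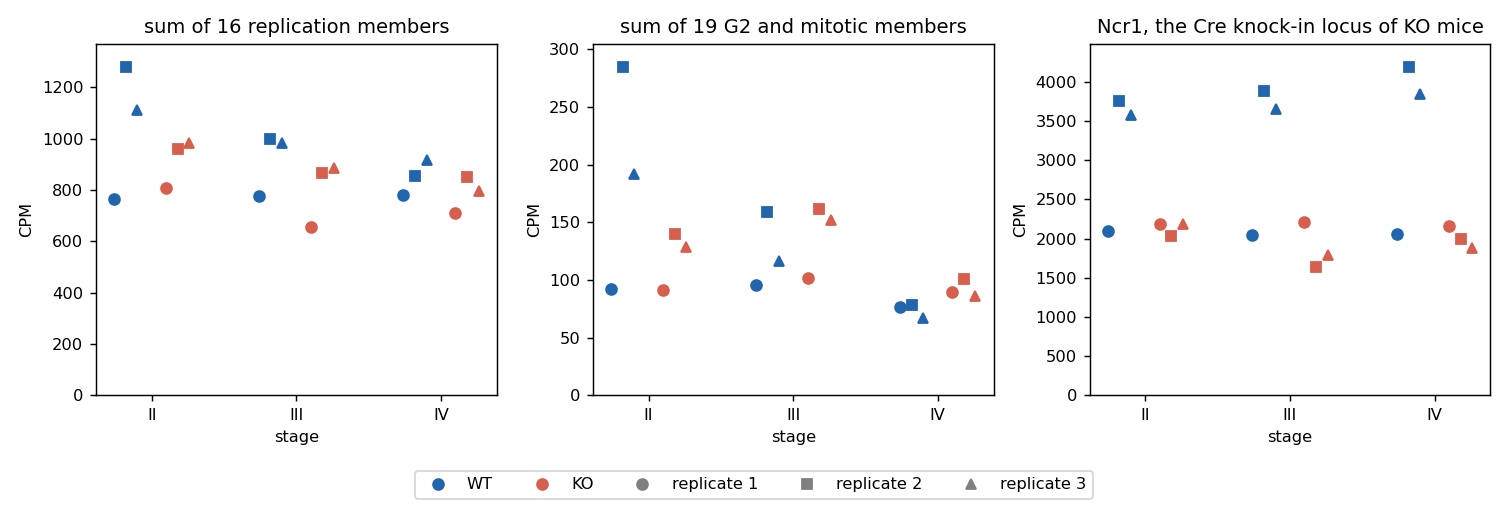
The panels plot each library's summed CPM of the 16 replication members, of the 19 G2 and mitotic members, and the CPM of Ncr1, by stage, with WT in blue, KO in red and a symbol for each replicate number. WT replicate 1 (blue circle) lies with the KO libraries for Ncr1 in each stage and is the lowest WT library of stage II in both sums.

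In stage III, 2 members were higher in KO and none was lower, against 7.9% of all genes called in either direction. Cenpa was at 19.3, 19.7 and 21.2 CPM in WT and 68.1, 32.6 and 37.2 in KO, and was higher by 1.20 (SE 0.24, adjusted p = 0.0108). Ccne1 was at 5.31, 3.88 and 3.61 CPM in WT and 9.51, 5.69 and 12.2 in KO, and was higher by 1.09 (SE 0.30, adjusted p = 0.038). Every KO library was above every WT library for both genes. The KO libraries with the lowest Itgam, replicates 1 and 3, held the highest values of both. In KO stage III, summed ILC1 markers were at 186 to 308 CPM against 49.3 to 59.0 in WT (8 of 8 called higher), and summed B cell markers at 22.2 to 27.3 against 10.3 to 10.6 (1 of 7 called higher). Summed plasma cell markers were at 76.41 to 134.9 CPM in KO stage III against 63.06 to 72.19 in WT. The erythroid and platelet sum was also higher in every KO library of the stage than in every WT library, while the T cell and myeloid sums overlapped. The part of these differences in the calls was not tested. Without KO stage III replicates 1 and 3, which leaves 1 KO library in the stage, the values were 0.69 for Cenpa and 0.41 for Ccne1. Without KO stage III replicate 2, 8 members were called in this comparison, while 2456 of all 16318 genes tested were called higher and 2537 lower. Cenpa lost its call without any 1 of the 3 WT stage III libraries or KO stage III replicate 1, and Ccne1 lost it in 13 of the 18 fits without 1 library.

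The KO stage III libraries disagreed with each other over the mitotic genes. Replicate 1 had 0 counts of Bub1 and Plk1, 1 of Bub1b and of Foxm1 and 3 of Aurkb, while replicate 2 had 31, 74, 94, 29 and 164. The same replicate 1 had the highest Cenpa of the 18 libraries and Ccnb2 at 6.89 CPM, within the range of the other KO stage III libraries (5.03 and 9.49). Cdc20 had a value as high as that of Ccne1, 1.10 (SE 0.33), and was not called (adjusted p = 0.0533). The lowest values in stage III were Bub1b at -1.30 (SE 0.71, adjusted p = 0.233), Cenpf at -0.72 and Rrm1 at -0.71 (SE 0.21, adjusted p = 0.051). Groups did not overlap for Ccne1, Ccne2 and Cenpa, higher in KO (9.29% of all genes), and for Mcm7 and Rrm1, lower in KO (11.2%).

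In stage IV, 0 members passed the test (0 at an unadjusted p under 0.05; DESeq2 called 0), against 0.509% of all genes. The median log2 fold change was 0.14, with 21 values above 0. The highest were Foxm1 at 0.94 (SE 0.63), Aurkb at 0.81 (SE 0.68) and Mki67 at 0.66 (SE 0.62), and the lowest Bub1 at -0.65, Ccnb2 at -0.58 and Mcm5 at -0.24, with an adjusted p of 1 for each. All KO libraries lay above all WT libraries for Rrm2, Foxm1, Top2a, Aurkb and Stmn1, 5 members against 6.99% of all genes, and below for Mcm7 and Rrm1, 2 members against 6.46%. Foxm1, the factor that drives late cell cycle genes, was at 1.11, 1.46 and 1.05 CPM in WT stage IV and 2.48, 1.90 and 2.56 in KO, on 21 to 65 counts a library. Birc5 at 0.493, 1.96 and 1.05 CPM in WT and 0.528, 0.970 and 1.61 in KO, Ccnb1 at 0.698, 0.918 and 0.399 against 0.845, 0.849 and 0.668, and Pcna at 75.2, 86.6 and 92.7 against 86.2, 81.1 and 79.6 overlapped.

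Averaged over the 3 stages, 1 member was lower in KO, against 5.45% of all genes called in either direction. Mcm7, a subunit of the MCM helicase, was at 50.1, 75.0 and 64.6 CPM in WT stage II and 44.7, 47.5 and 48.5 in KO. It was at 44.0, 58.7 and 56.8 in WT stage III and 31.6, 43.0 and 38.8 in KO, and at 47.8, 51.2 and 53.7 in WT stage IV and 44.6, 42.8 and 44.6 in KO. In each stage every KO library lay below every WT library. The mean difference was -0.38 (SE 0.09, adjusted p = 0.0153), and it was -0.49 (adjusted p = 0.00331) without the WT replicate 1 libraries and -0.11 (adjusted p = 0.978) with those as the only WT libraries. Without KO stage III replicates 1 and 3, which leaves 1 KO library in that stage, it was -0.32. The call was lost in 8 of the 18 fits without 1 library. Mcm7 (chr5:138164583-138172422, minus strand, as the deposited gene models place it) overlaps Cops6 and Ap4m1 on the other strand and the microRNA genes Mir25, Mir93 and Mir106b on its own, so reads of these genes cannot all be told apart.

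**Figure D5:**
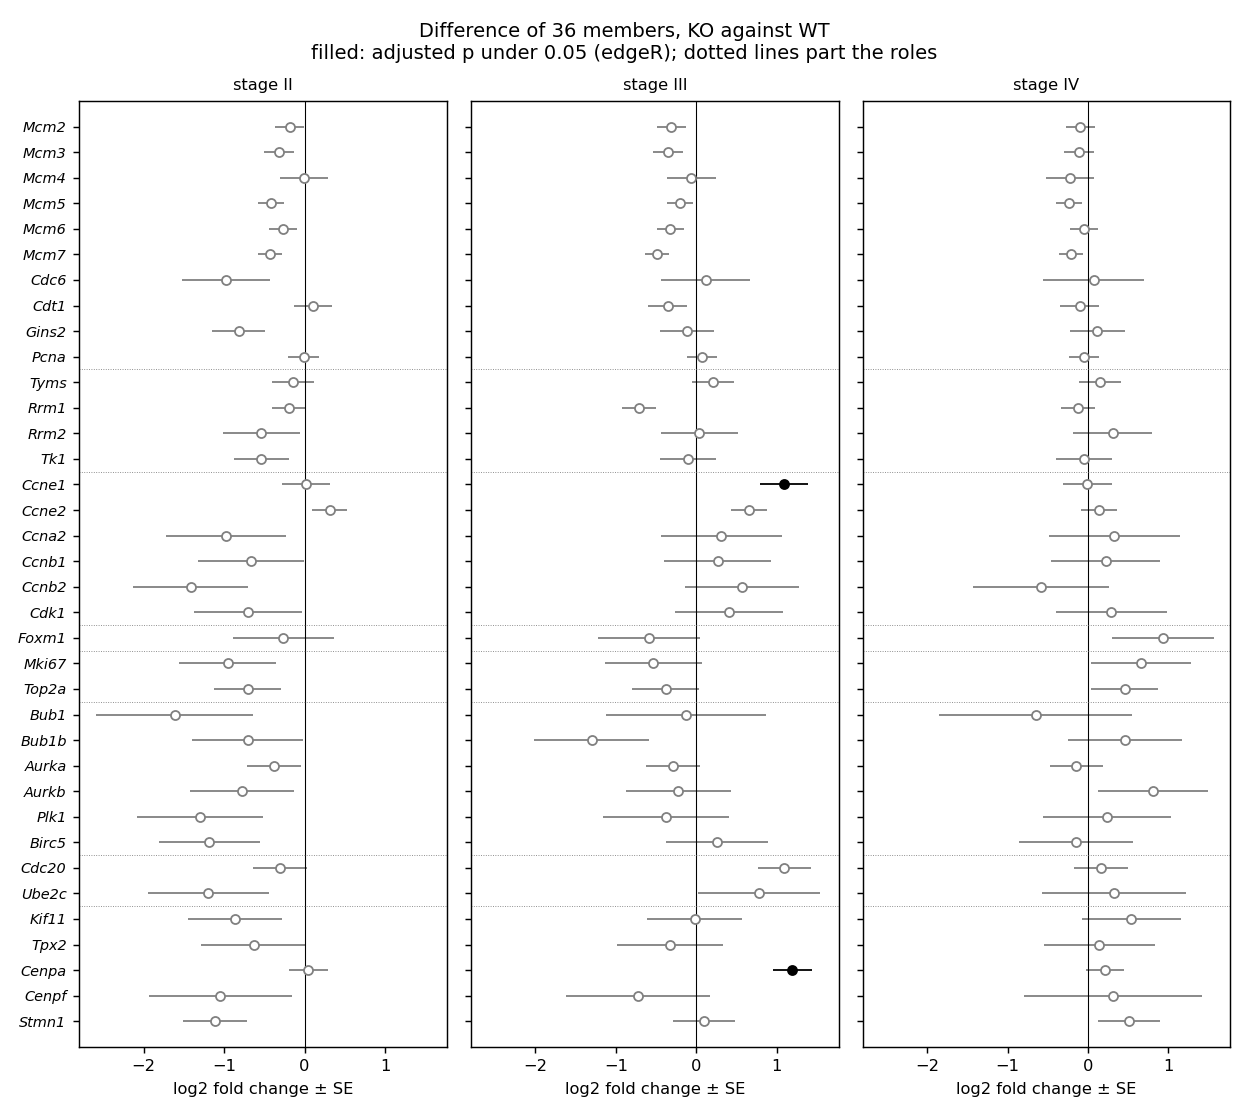
Points are the log2 fold changes of the 36 members, KO against WT, with their SE in stages II, III and IV. Filled points passed an adjusted p under 0.05, which only Ccne1 and Cenpa in stage III did, and the stage II points lie mostly left of 0.

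Among the further pathway genes, 2 of 138 tested (1.45%) were lower in KO at stage II, against 1.46% of all genes called in either direction. Racgap1, which encodes a central spindle protein of cytokinesis, was at 45.2, 68.2 and 54.4 CPM in WT and 36, 31.7 and 24.9 in KO (log2 fold change -0.86, SE 0.19, adjusted p = 0.0317). Tfdp1 was at 14.7, 19.6 and 17.6 CPM in WT and 9.88, 9.61 and 11.9 in KO (-0.72, SE 0.17, adjusted p = 0.0384). The genotypes did not overlap for either gene, but over the 18 fits without 1 library the Racgap1 call was lost in 12 and the Tfdp1 call in 14. Averaged over the stages, 3 pathway genes were lower and 3 higher (2.17% each, against 5.45% of all genes in either direction). Tfdp1 was lower by 0.51 on the log2 scale in KO (adjusted p = 0.0041), with Dnmt1 (-0.45) and the condensin gene Smc2 (-0.38), and Cdk2 (0.49), Gadd45g (0.43) and H2afx (0.46) were higher. The Tfdp1, Cdk2 and Gadd45g differences stayed called in all 18 fits without 1 library. Such fits cannot show whether a call depends on the WT replicate 1 libraries as a set. In number 1, Gadd45g was lower in KO than in WT at stage III (42.35 and 49.98 CPM) and at stage IV, and higher at stage II. Tfdp1 in number 1 was higher in KO at stage III (14.8 and 13.03 CPM) and lower at stages II and IV. Cdk2 in number 1 was higher in KO in each stage.

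At stage III, 10 of the 138 pathway genes tested (7.25%) were higher and 2 (1.45%) lower in KO, a share close to the 7.9% of all genes called, so the count says nothing particular to the pathway. Higher were Cdkn1b (1.20), Cdkn2d (0.47) and Btg1 (1.15) among the inhibitors, Rb1 (0.74) and Lin37 (0.54), Cdk2 (0.74) and Cdk6 (1.46), Dut (0.82), and H2afx (1.01) and Ckap2 (1.08). Lower were Ccnd2 (-0.55) and Dnmt1 (-0.85). Each of these calls was lost in at least 5 of the 18 fits without 1 library, and Lin37 was at -0.06 without KO stage III replicates 1 and 3. KO replicate 3 lay far above replicates 1 and 2 for 3 of the genes. Cdk6 was at 133, 138 and 588 CPM in KO (97.9 to 112 in WT). Btg1 was at 1603, 1488 and 4874 (1022 to 1305 in WT) and Cdkn1b at 284, 161 and 637 (136 to 177 in WT). KO replicate 2 lay within the WT range for Cdkn1b and below it for Lin37. For the rest it lay outside the WT range, on the side of the call. At stage IV none was called.

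From KO stage II to IV, 11 of the 138 pathway genes tested (7.97%) rose and 10 (7.25%) fell, close to the 6.12% and 8.76% of all genes, so these counts too are near the background. The risers were Racgap1 (1.90), H2afz (1.04), the inhibitors Cdkn2d (0.95), Gadd45a (0.87) and Cdkn1a (1.16), E2f2 (1.30), Ccnd3 (0.62), Cdc25b (0.52), Rpa2 (0.74), Rpa1 (0.62) and Dnmt1 (0.72). Those that fell were Spc24 (-3.08), Cks1b (-1.37), Cdca3 (-1.30), Dck (-1.03), Dut (-1.49), Pold2 (-0.51), Orc2 (-0.42), Rbl2 (-1.04), Tfdp1 (-0.92) and Cdk6 (-1.34). Cdkn2d, which encodes the inhibitor p19, was at 205, 188 and 193 CPM in KO stage II and 344, 403 and 384 in KO stage IV, and at 216, 251 and 213 and then 364, 405 and 391 in WT, with no overlap between the stages in either genotype.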

How the data were processed

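RNA-seq of 18 libraries was analysed from the tables that the authors deposited. Each table holds, per the file headers, a read count, a CPM value (scaled to the library's total count) and an RPKM value (also divided by the gene's exon length) for 41388 genes. The count columns are whole numbers as deposited by the authors. The deposited CPM equalled the count over the library's total within a relative difference of 5e-15, and the deposited RPKM equalled CPM per kilobase within 6.6e-14. STAR 2.0.4, Subread and featureCounts 1.4.5 are named per the submitters' processing notes. The genome build, the strand setting and the read type were not given in the sources used here. Symbols and overlapping genes came from GENCODE M21, which lists 40254 of the gene IDs.

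Counts were fitted with edgeR 4.0.16 (TMM scaling, quasi-likelihood test) in R 4.3.3 with 1 model over the 6 groups, after a filter on low counts that left 14156 genes, and p-values were adjusted over all of them by the Benjamini-Hochberg method. A gene was called at an adjusted p under 0.05. Fold changes are log2 values with a prior count of 0.125, and each SE is the absolute log2 fold change over the square root of its F value, an approximation. CPM in the text is scaled by TMM, except for Eomes, Xist, Itgam and Cd27, which are the deposited values. The procedure was tested on simulated data. The text names every member, the members with the 3 lowest and 3 highest fold changes of the main comparisons, and, of each further pathway list, at most 4 called genes in each direction.

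The members and lists were chosen with earlier results of these data known. Alternatives were DESeq2 1.42.0, RLE scaling, no filter, the replicate number as a block, a fit of the contrast's own libraries, limma 3.58.1 (voom) with library weights, and fits without 1 library. Fits without the 2 libraries with the most genes at low counts, without the 3 WT libraries with low Ncr1 and without the 6 others were chosen after seeing the data, and their effect is given in the closing section. Over 5000 genes, deviations from the group means correlated among libraries with the same number (median r 0.316, range -0.229 to 0.823, over 0.1 in 37 of 45 pairs). By the rule that every pair exceed 0.1, the numbers paired the WT stages, KO stages II and III, and the genotypes at stage II, and no label says what a number stands for.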

Additional observations from a re-analysis of the deposited data

Results flagged for a closer look

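Among the wider pathway genes, Racgap1, whose protein acts at the central spindle in cytokinesis, changed differently in the 2 genotypes from stage II to IV by a test of the difference itself. The interaction was 1.42 on the log2 scale (edgeR, adjusted p = 0.0439), with DESeq2 at 1.43. WT libraries went from 45.2, 68.2 and 54.4 CPM in stage II to 84.5, 84.3 and 65.1 in stage IV, and KO libraries from 36, 31.7 and 24.9 to 85.5, 135 and 124. The call was lost in 13 of the 18 fits without 1 library, over which the value ran from 1.20 to 1.56. The interaction was 1.62 (adjusted p = 0.0921) without the WT replicate 1 libraries and 0.85 (adjusted p = 0.531) with those as the only WT libraries.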

How the results depend on the processing

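Values are numbers of the 36 members called, in either direction, unless a fold change is named. The numbers over all genes moved with the setting too, so a member count that moves is not by itself a result about the members. For WT IV against II, 745 of 14156 genes rose and 1390 fell in the main fit, and 2311 rose and 2844 fell with voom weights. DESeq2 called 6 for KO against WT at stage III, 4 for the mean of the stages and 1 for WT stage III against II. It called 4 for WT IV against III, 3 for KO III against II and 8 for KO IV against II. Over its 14104 genes, DESeq2 called 1430 higher and 841 lower for KO against WT at stage III, and 713 and 603 for the mean. These numbers were 247 and 437 for WT III against II, and 194 and 558 for WT IV against III. They were 1232 and 1049 for KO III against II, and 1106 and 1463 for KO IV against II. RLE scaling called 2 for the mean of the stages and 1 for WT III against II. Over all 14156 genes it called 416 higher and 362 lower for the mean, and 141 and 285 for WT III against II. Without the low-count filter the member counts were 5, 4 and 3 for KO against WT at stage II, at stage III and for the mean. They were 5 and 10 for WT III against II and IV against III, and 4 and 10 for KO III against II and IV against II. For the interactions of III against II and IV against II they were 2 and 4. Over all 33645 genes in that fit, 163 were higher and 460 lower for KO against WT at stage II, and 1057 and 884 at stage III. For WT IV against III these numbers were 151 and 456, and for the interaction of IV against II 1563 and 108. With voom weights the member counts were 5 and 3 for KO against WT at stage II and for the mean, and 6 and 10 for the successive WT stages. They were 27 for WT IV against II and 1 for KO IV against III. Over all 14156 genes, voom called 533 higher and 528 lower for KO against WT at stage II. For WT III against II it called 712 and 1118, and for WT IV against III 1086 and 1440. With the contrast's own libraries the member counts were 0 for KO against WT at stage III and 7 for WT IV against III. They were 0 and 1 for the successive KO stages and 10 for KO IV against II. Over all genes, 9 of 12535 were called higher and 1 lower for KO against WT at stage III. For WT IV against III 534 of 12572 were called higher and 925 lower, and for KO IV against II 1207 of 13005 and 1596.

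With the replicate block the member count was 5 for KO against WT at stage III, 1 for WT III against II and 3 for WT IV against III. It was 2 for KO III against II and 8 for KO IV against II, and within 1.5 times the unblocked count in the other comparisons. Over all 14156 genes, 1052 were called higher and 718 lower for KO against WT at stage III, and 1010 and 1367 for KO IV against II. The numbers did not pair the libraries by the rule for KO against WT at stage III or KO IV against II, and 16 of 18 libraries correlated best with one of their own number, a hint from the data and not from the design.

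The fit that drops KO stage III replicates 1 and 3, which have few detected genes, leaves 1 library in that group. Counts for comparisons with KO stage III are therefore not given. The member counts were 1 and 3 for WT III against II and IV against III. Without the 2 libraries with many genes at low counts (WT stage II replicate 1 and replicate 3 from KO stage IV) they were 1 and 1 for KO against WT at stages II and III and 1 and 1 for WT III against II and IV against III. Without the 3 WT libraries with low Ncr1 they were 2, 1 and 3 for KO against WT at stages II and III and the mean, 1 for WT IV against III, 9 for WT IV against II, and 2 for KO III against II. Without the 6 other WT libraries, which leaves 1 WT library a stage whose spread is taken from the KO groups, they were 0 and 0 for KO against WT at stage III and the mean, 0 for WT IV against II, and 0 and 3 for the successive KO stages and 3 for KO IV against II. The cause was not tested. Over all 14072 genes in the fit without the 2 libraries with many genes at low counts, 59 were higher and 127 lower in KO at stage II. At stage III these numbers were 407 and 222. Over all 14330 genes in the fit without the 3 WT libraries with low Ncr1, they were 71 and 132 at stage II and 146 and 95 at stage III.

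Leaving out 1 library gave 0 to 1 calls for KO against WT at stage II, 0 to 8 at stage III, 0 to 5 for the mean, 0 to 1 for WT III against II, 0 to 2 for WT IV against III, 4 to 19 for WT IV against II, 0 to 6 for KO III against II, 1 to 11 for KO IV against III, 1 to 7 for KO IV against II and 0 to 4 for each interaction with stage III. The upper ends of 8, 6, 11 and 4 came without KO stage III replicate 2. In that fit many of all genes were called too.

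Some fold changes turned sign. With the WT replicate 1 libraries as the only WT libraries, KO against WT was 1.34 for Ccnb2 and 0.33 for Plk1 at stage II, 0.89 for Cenpf at stage III, and 0.56 for Bub1 and 0.44 for Ccnb2 at stage IV, and Mki67 was at 0.044 for WT IV against II. At stage II, Cdt1 was at -0.10 and Cenpa at -0.12 without the 2 libraries with many genes at low counts, and at -0.11 and -0.13 without the 3 with low Ncr1. For WT IV against II, Mcm4 was at -0.00538 with the contrast's own libraries, -0.090 with voom weights, -0.20 without the 2 and -0.058 without the 3, and Stmn1 was at -0.011, -0.26 and -0.37 in the last 3 of these fits. Lin37 was at -0.059 at stage III without the 2 libraries with few detected genes. Over the fits without 1 library, Cdt1 ran from -0.10 to 0.33 and Cenpa from -0.14 to 0.19 at stage II, Bub1 from -1.50 to 0.45 at stage IV (above 0 without WT stage IV replicate 2), Mcm4 from -0.21 to 0.18 and Stmn1 from -0.27 to 0.63 for WT IV against II, and Aurka from -0.049 to 0.43 for KO IV against II. Depth limits the mitotic genes most, since several had under 10 counts in single libraries.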
